A study of Arabidopsis thaliana with 9 samples.

Results

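RBOHD and the catalases CAT1, CAT2 and CAT3 were followed as 4 probe sets of 22810 on Affymetrix arrays hybridised with leaf RNA of Arabidopsis thaliana. The probe sets were fixed by their identifiers: 248719_at for RBOHD (AT5G47910), 259517_at for CAT1 (AT1G20630), 253174_at for CAT2 (AT4G35090) and 259544_at for CAT3 (AT1G20620). These gene assignments come with the list of members. The probe annotation used here lists none of the 4 probe sets, so the assignments could not be checked against it. Each gene is read by 1 probe set.

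The arrays covered cat2 rbohD, cat2 rbohF and cat2 leaves, with 3 arrays per genotype and 9 in all. The titles name the lines cat2-2 atrbohD, cat2-2 atrbohF and cat2-2. All plants were in the Columbia-0 ecotype and all carried the cat2 mutation, so cat2 is the genotype that both double mutants were set against. No wild-type array was analysed here, and a change of any gene caused by the loss of CAT2 alone cannot be seen. Plants were 3 weeks old and had grown in air with 16 h of light and 8 h of darkness at 200 μmol m-2 s-1, and each array held RNA of its own pool of leaves from 8 or more plants. Each mutation was represented by 1 line. In pooled leaves, fewer cells of a type and less transcript per cell cannot be told apart.

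Both oxidases, RBOHD and RBOHF, sit in the plasma membrane and use NADPH. They pass its electrons from the cytosol to oxygen outside the cell, and the superoxide formed there becomes hydrogen peroxide. RBOHD is the main oxidase of the burst that follows pathogen recognition, and its activity is set by calcium and by phosphorylation, among others by the receptor-associated kinase BIK1. Catalases work at the other end of peroxide metabolism: they break down hydrogen peroxide inside peroxisomes, where glycolate oxidase makes it during photorespiration. CAT2 is the main catalase of photosynthetic leaf cells, CAT3 is best known from vascular tissue and ageing leaves, and CAT1 is known mainly from pollen and seeds and from induction by stress and abscisic acid. The transcripts of CAT2 and CAT3 are under circadian control, with CAT2 highest in the morning and CAT3 in the evening.

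The values are log2 expression values that the authors made with GCRMA, and each unit is a doubling of signal. A level of 5.14, the 40th percentile of all values, was used as the limit under which probe sets were treated as dim. To be tested, a probe set had to lie above that limit on 3 or more arrays, and 13888 did. All 4 members passed. The catalase probe sets lay above the limit on every array, and RBOHD passed through its values in cat2 rbohF and cat2. The array medians lay between 6.06 and 6.12. One array stood apart: along the leading component of a principal component analysis (49% of the variance), cat2 rbohD replicate 3 scored 10.4, against -10.1 and -10.7 for the other cat2 rbohD arrays, 14.4 to 26.2 for cat2 rbohF and -24.4 to -15.1 for cat2. RCA, the Rubisco activase gene fixed as a mesophyll marker, ran from 14.14 to 14.15 in cat2 rbohD, from 14.15 to 14.19 in cat2 rbohF and from 14.09 to 14.15 in cat2. It was the only 1 of the mesophyll markers that could be named.

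RBOHD was read first, because it checks a genotype label. Its probe set stood at 4.43, 4.38 and 4.50 in cat2 rbohD, at 8.85, 9.02 and 8.97 in cat2 rbohF, and at 9.64, 9.47 and 9.64 in cat2. The cat2 rbohD arrays are the 3 low ones, all under the limit for dim probe sets, and no group overlaps another. The 3 arrays labelled cat2 rbohD, replicate 3 included, are thus those without a clear RBOHD signal. As background, groups did not overlap at 13.4% of tested probe sets in cat2 rbohD against cat2. The share was 38.7% in cat2 rbohF against cat2 and 26% between the double mutants. The log2 fold change was -5.15 ± 0.08 (SE) for cat2 rbohD against cat2 (limma adjusted p = 1.05e-09) and 4.51 ± 0.08 for cat2 rbohF against cat2 rbohD (limma adjusted p = 3.72e-09). Of all tested probe sets, 0.209% were called in the comparison of cat2 rbohD with cat2 and 1.92% in that of the double mutants. The measured differences are 35.4-fold and 22.7-fold. Since the cat2 rbohD mean of 4.44 lies in the dim range, the sizes are uncertain, and the SEs do not cover this. RBOHD passed the filter through cat2 rbohF and cat2 only. The p-values of both comparisons are therefore a description and add no support to the label check. Set against the limit of 5.14, the signal of this probe set was at least 21.8-fold lower in cat2 rbohD than in cat2. Against cat2 rbohF it was at least 14.0-fold lower. Where its probes lie relative to the mutation in RBOHD is not given by the sources used here.

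**Figure D1:**
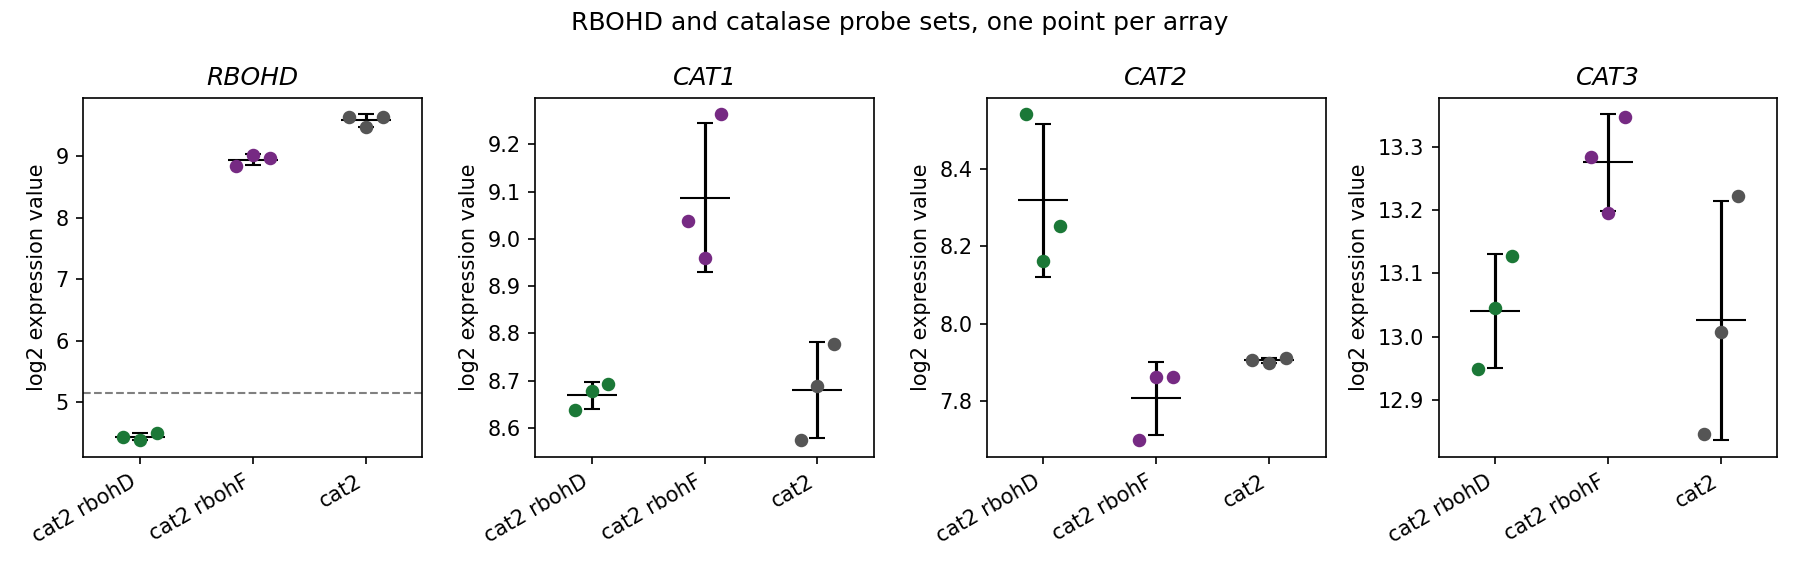
Log2 expression values of RBOHD, CAT1, CAT2 and CAT3 on the 9 arrays, in cat2 rbohD, cat2 rbohF and cat2 (points, 1 per array; horizontal bar and whiskers, mean ± SD of 3 arrays). Each panel has its own vertical axis, and the dashed line in the RBOHD panel is the limit of 5.14: the 3 cat2 rbohD arrays lie under it at 4.38 to 4.50, while the catalases differ by less than 1 unit between any 2 arrays.

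RBOHD was also lower where only the other oxidase was mutated. It averaged 8.94 ± 0.089 in cat2 rbohF and 9.58 ± 0.099 in cat2 (SD, n = 3 each). The highest cat2 rbohF array, at 9.02, was 0.45 below the lowest cat2 array, at 9.47. Groups did not overlap at 38.7% of tested probe sets in this comparison. RBOHD fell by 0.64 ± 0.08 (SE) on the log2 scale in cat2 rbohF, to 0.643 of its signal in cat2, with a 95% interval of 0.566 to 0.730 (limma adjusted p = 0.0022). In this comparison 16.4% of tested probe sets were called and 9.89% were called lower, while 7.01% had a larger absolute change than RBOHD. The call held with each of the 9 arrays left out in turn, with log2 fold changes of -0.70 to -0.59 and adjusted p of 0.00152 to 0.015, and under the 9 other settings.

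The genotype label of cat2 rbohF could not be read in the same way, because the probe set of RBOHF was not named here. Among the other NADPH oxidases, 3 had a named probe set, those of AT1G19230, AT4G25090 and AT4G11230. Their values ran from 3.16 to 3.92 over all 9 arrays, in the dim range in every genotype, so no change of them was measurable. Of the 18 genes listed as activators or partners of RBOHD, 2 were tested. BIK1 stood at 8.38 ± 0.12 in cat2 rbohF and 8.80 ± 0.13 in cat2 (SD, n = 3 each) and fell by 0.43 (limma adjusted p = 0.0147), a call lost without cat2 rbohF replicate 1 or 3 or without cat2 replicate 2 (up to 0.0678). EFR, a receptor of bacterial elongation factor, had a log2 fold change of -0.25 that did not pass (limma adjusted p = 0.177). In cat2 rbohD against cat2 neither passed, at -0.25 for BIK1 and -0.08 for EFR (limma adjusted p = 0.362 and 0.844).

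CAT2 is mutated in all 9 arrays, and its probe set nevertheless gave signal. It stood at 8.54, 8.16 and 8.25 in cat2 rbohD, at 7.70, 7.86 and 7.86 in cat2 rbohF, and at 7.91, 7.90 and 7.91 in cat2. The cat2 rbohD arrays are the 3 highest, replicate 1 above the others, and the cat2 arrays lie within 0.011 of each other. No value came near the limit of 5.14, unlike RBOHD in cat2 rbohD. The sources used here do not say where the probes lie relative to the mutation in CAT2. Without wild-type arrays the level in intact plants is not known either, so the signal neither checks the cat2 label nor measures working CAT2 transcript.

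The CAT2 signal differed between the double mutants. It averaged 7.81 ± 0.094 in cat2 rbohF and 8.32 ± 0.20 in cat2 rbohD (SD, n = 3 each), and fell by 0.51 ± 0.10 (SE) in cat2 rbohF (limma adjusted p = 0.0449), a 1.43-fold difference with a 95% interval of 1.22 to 1.67. In this comparison 1.92% of tested probe sets were called, 1.06% lower in cat2 rbohF, and the groups did not overlap at 26%. The call lies close to the threshold: it was lost when any 1 array other than cat2 rbohD replicate 3 was left out (limma adjusted p of 0.0582 to 0.189), and without that array, which stood apart, it was 0.0291 with a log2 fold change of -0.55. The direction was the same throughout, at -0.59 to -0.40.

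Against cat2, the CAT2 probe set of cat2 rbohD was 0.41 ± 0.10 (SE) higher, with a 95% interval of 0.18 to 0.64, and did not pass (limma adjusted p = 0.173). Its groups did not overlap, as for 13.4% of tested probe sets in this comparison, where 0.209% of probe sets were called. In cat2 rbohF it was at -0.10 ± 0.10 against cat2 (limma adjusted p = 0.564), with a 95% interval of -0.33 to 0.13. The cat2 rbohF and cat2 arrays did not overlap, but the gap between them was only 0.038, and 38.7% of tested probe sets had groups without overlap in this comparison. Of the 3 comparisons, CAT2 passed the threshold in that of the double mutants only.

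CAT1 was the 1 catalase of 3 called higher in cat2 rbohF against cat2. CAT3 also had a positive log2 fold change there, of 0.25, but did not pass (limma adjusted p = 0.134). The CAT1 probe set stood at 8.64, 8.68 and 8.69 in cat2 rbohD, at 9.04, 8.96 and 9.26 in cat2 rbohF, and at 8.57, 8.69 and 8.78 in cat2. The cat2 rbohF arrays are the 3 highest, while cat2 rbohD and cat2 overlap fully. Groups did not overlap at 38.7% of tested probe sets in cat2 rbohF against cat2 and at 26% between the double mutants. CAT1 averaged 9.09 ± 0.16 in cat2 rbohF and 8.68 ± 0.10 in cat2 (SD, n = 3 each), and rose by 0.41 ± 0.09 (SE), or 1.33-fold with a 95% interval of 1.15 to 1.53 (limma adjusted p = 0.0193). Of all tested probe sets, 6.47% were called higher in this comparison and 15% had a larger absolute change. Leaving out 1 array ended the call in 4 of 9 cases, namely replicates 1 and 3 of cat2 rbohF and replicates 1 and 2 of cat2 (limma adjusted p of 0.0582 to 0.0658), and the log2 fold change ran from 0.32 to 0.47 over all 9 cases.

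The same size of difference lay between the double mutants without passing. CAT1 averaged 9.09 ± 0.16 in cat2 rbohF and 8.67 ± 0.028 in cat2 rbohD (SD, n = 3 each), a log2 fold change of 0.42 ± 0.09 (SE) with a limma adjusted p of 0.053. It passed under 5 of 9 other settings with all arrays, with adjusted p of 0.0405 to 0.103 over the 9. In cat2 rbohD against cat2 the CAT1 log2 fold change was -0.01 ± 0.09, with a 95% interval of -0.22 to 0.20 (limma adjusted p = 0.977), and its sign turned with quantile normalization again (0.0072) and with each array centred on its median (0.018).

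A root marker rose in the same comparison as CAT1. PYK10, a beta-glucosidase gene of endoplasmic reticulum bodies and the only gene listed as a root marker, ran from 8.71 to 9.17 in cat2 rbohF and from 6.96 to 8.11 in cat2, and rose by 1.35 (limma adjusted p = 0.00836). Of 23 marker genes of leaf and other cell types, 4 could be named and tested. The other 3, RCA, the guard cell gene FMA and the phloem sugar transporter gene SWEET11, had log2 fold changes of 0.03, 0.15 and 0.14 in cat2 rbohF against cat2 and did not pass. The log2 signal of the GAPDH control at its 3' over its 5' probe set was 0.91 ± 0.068 in cat2 rbohF and 0.75 ± 0.057 in cat2 (SD, n = 3 each), whereas that of actin was 2.47 ± 0.17 in cat2 rbohF and 2.60 ± 0.18 in cat2, and that of ubiquitin 1.29 ± 0.052 in cat2 rbohF and 1.33 ± 0.087 in cat2. These ratios were not tested. Their part and that of PYK10 in the rise of CAT1 and the fall of RBOHD was not tested.

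CAT3 did not pass in any comparison. Its probe set stood at 12.95, 13.05 and 13.13 in cat2 rbohD, at 13.28, 13.20 and 13.35 in cat2 rbohF, and at 12.85, 13.01 and 13.22 in cat2. The highest cat2 array lies above the lowest cat2 rbohF array, while the cat2 rbohF and cat2 rbohD arrays do not overlap, as for 26% of tested probe sets. The log2 fold change was 0.25 ± 0.10 (SE) in cat2 rbohF against cat2, with a 95% interval of 0.018 to 0.48 before adjustment (limma adjusted p = 0.134), and 0.23 ± 0.10 in cat2 rbohF against cat2 rbohD (limma adjusted p = 0.222). In cat2 rbohD against cat2 it was 0.02 ± 0.10 with a 95% interval of -0.22 to 0.25 (limma adjusted p = 0.969).

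**Figure D2:**
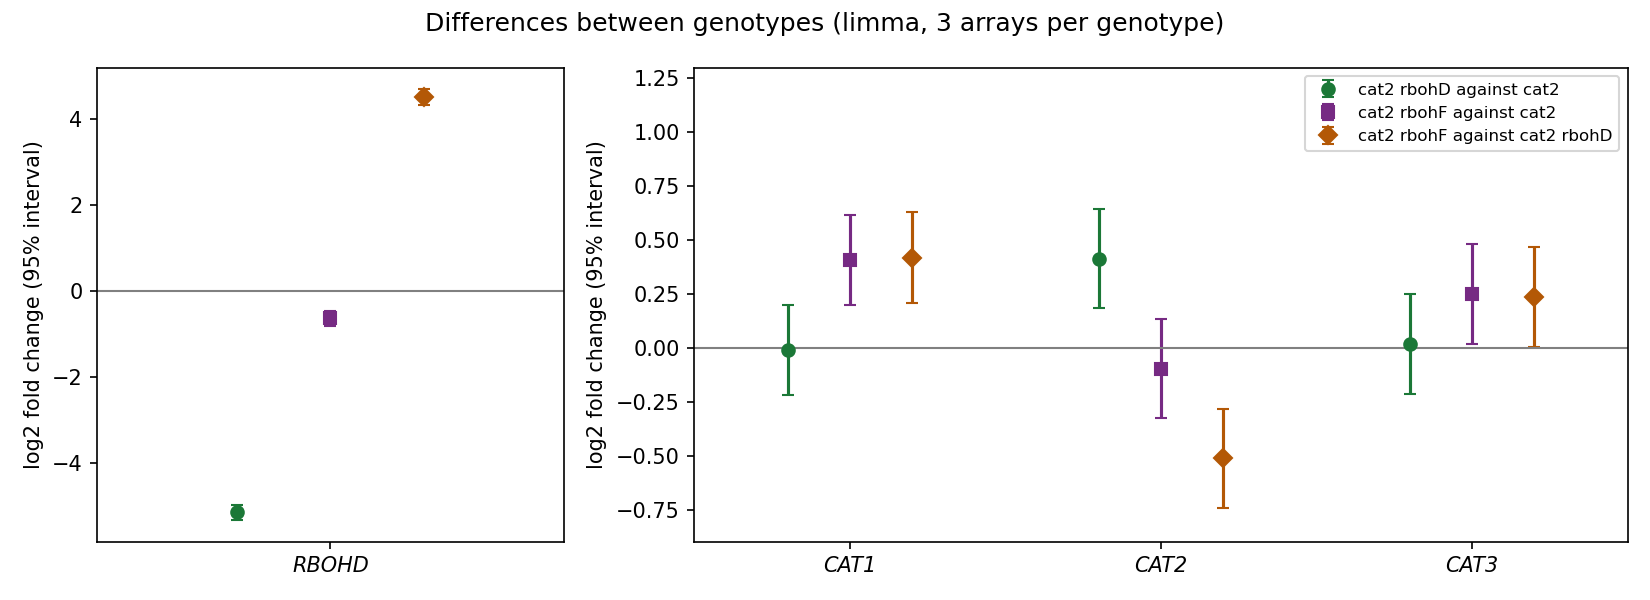
Log2 fold changes of RBOHD (left panel) and of the 3 catalases (right panel, with a finer axis) in cat2 rbohD against cat2, cat2 rbohF against cat2, and cat2 rbohF against cat2 rbohD (points, limma estimates; bars, 95% intervals before adjustment). RBOHD lies at -5.15, -0.64 and 4.51, CAT1 lies at -0.01, 0.41 and 0.42, and CAT2 is the catalase whose difference is largest between the double mutants, at -0.51.

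Of the 3 catalase probe sets, 0 were called in cat2 rbohD against cat2 with limma, where 0.209% of tested probe sets were, and 1, CAT2, had an unadjusted p under 0.05, at 0.00256, as did 10.8% of tested probe sets. In cat2 rbohF against cat2, 1 rose and 2 did not pass, beside 16.4% called and 6.47% called higher over all tested probe sets. In cat2 rbohF against cat2 rbohD, 1 fell and 2 did not pass, beside 1.92% called and 1.06% called lower. Their median log2 fold changes were 0.02, 0.25 and 0.23 in these comparisons, against -0.005, 0.008 and -0.002 over all tested probe sets. The comparisons with cat2 share the 3 cat2 arrays, so their values are not independent.

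To compare the catalases with each other, the difference of their log2 values was taken within each array, which cancels what an array adds to both. CAT1 minus CAT2 was 0.35 ± 0.22 in cat2 rbohD, 1.28 ± 0.16 in cat2 rbohF and 0.77 ± 0.10 in cat2 (SD, n = 3 each). The 3 genotypes do not overlap in this difference: it is smallest in cat2 rbohD and largest in cat2 rbohF. Levels of different probe sets are not comparable, so only its change between genotypes has a meaning. Relative to cat2 it was 0.42 lower in cat2 rbohD (log2 difference -0.42) and 0.50 higher in cat2 rbohF, and the double mutants lay 0.93 apart. CAT2 minus CAT3 changed by 0.40 in cat2 rbohD and by -0.35 in cat2 rbohF relative to cat2, again without overlap. CAT1 minus CAT3 changed by -0.03 in cat2 rbohD, with overlap, and by 0.16 in cat2 rbohF, without. Over the 3 pairs and 3 comparisons, the groups did not overlap in 8 of 9 differences, which gives the smallest p that 3 against 3 unpaired arrays allow, 0.1 (exact permutation test, two-sided; 0.112 after Benjamini-Hochberg adjustment). None could pass the threshold whatever the values, so this test cannot decide whether the catalases changed unequally. The 9 differences share arrays and probe sets and are not independent, so their count adds no support. Groups of single probe sets did not overlap at 13.4%, 38.7% and 26% in the 3 comparisons, and the rate for differences of 2 probe sets was not computed.

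CAT1 and CAT3 varied together among arrays of the same genotype. In all 3 genotypes the array lowest for CAT1 was lowest for CAT3, and the array highest for CAT1 was highest for CAT3. After each genotype's mean was taken off, their Pearson correlation over the 9 arrays was 0.773, and 2.53% of tested probe sets had one at least as high with CAT1. It was 0.822 with quantile normalization again and 0.768 with each array centred on its median. The points share arrays and normalization, and the correlation is a description only. CAT1 and CAT3 are neighbours on chromosome 1, with 0 protein-coding genes between them in the RefSeq annotation. Whether either probe set also binds the other transcript was not tested. CAT2 did not vary with them within genotypes, with correlations of -0.019 to CAT1 and -0.28 to CAT3, and RBOHD had correlations of -0.0080 to CAT1, 0.31 to CAT2 and 0.066 to CAT3. The spread of the members within genotypes was 0.084 for RBOHD, 0.11 for CAT1, 0.13 for CAT2 and 0.13 for CAT3 (pooled SD), against a median of 0.13 over tested probe sets.

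Named genes with the most similar profile over the 9 arrays were ranked by Pearson correlation of log2 values among 7435 tested probe sets of 1 gene. For CAT1 they were AT3G52960 (0.956), which encodes the chloroplast peroxiredoxin PRXIIE, the methionine aminopeptidase gene MAP1C (0.955), the cold-induced COR15A (0.953), AT2G46910 (0.953) and MCCA (0.949), a carboxylase subunit gene of leucine breakdown. Each kept a correlation of 0.703 to 0.878 with CAT1 after the genotype means were taken off. For CAT3 they were AT2G43530 (0.965), CCL (0.952), a gene with rhythmic transcript, AT5G02940 (0.945), AT2G40460 (0.936) and AT5G18590 (0.933), with 0.86 to 0.948 after the means were taken off. For CAT2 they were AT1G11880 (0.982), AT1G70900 (0.968), AT5G54130 (0.923), AT2G21185 (0.922) and the methionine methyltransferase gene MMT (0.915), with 0.478 to 0.931 after the means were taken off. All these genes were picked for likeness over the same 9 arrays, so the correlations within genotypes are a description only.

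For RBOHD the most similar named profiles were AT3G18790 (0.926), BGLU45 (0.879), AT1G11930 (0.875), AT4G12700 (0.862) and AT3G62160 (0.859). This likeness did not extend within genotypes: after the genotype means were taken off all 5 correlations were negative, at -0.649 to -0.104. The ranking chose genes for being low where RBOHD was low, so their differences from cat2 are a description. Those of AT3G18790, AT1G11930, AT4G12700 and AT3G62160 were -0.25 to -0.09 in cat2 rbohD and -0.02 to 0.04 in cat2 rbohF. BGLU45, whose product acts on monolignol glucosides, stood at 5.62 ± 0.15 in cat2 rbohD, 6.34 ± 0.25 in cat2 rbohF and 6.92 ± 0.28 in cat2 (SD, n = 3 each), a difference from cat2 of -1.30 in cat2 rbohD and -0.58 in cat2 rbohF.

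Other genes that make or remove peroxide, or that were listed as regulators, clock or senescence genes, were read from lists of 135 loci besides the members, of which 26 had a named probe set and 22 were tested. In cat2 rbohD against cat2, 0 of 22 passed with limma, against 0.209% of all tested probe sets. An unadjusted p under 0.05 was found for 5 of the 22, beside 10.8% of all tested probe sets. In cat2 rbohF against cat2, 5 rose, 4 fell and 13 did not pass, a share of 40.9% beside 16.4% of all tested probe sets. The lists were chosen with earlier results of these data known, so this share is a description and no test of the lists. Of these calls, only those of TAPX, GR1 and WRKY53 held with any 1 array left out. In cat2 rbohF against cat2 rbohD, 0 of 22 passed with limma, against 1.92%. An unadjusted p under 0.05 was found for 9 of the 22, but the share over all tested probe sets was not computed, so this count cannot be judged. None of the 8 regulators and partners of catalases and none of the 7 other peroxisomal oxidases on the lists had a named probe set.

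Photorespiration, the main source of peroxisomal peroxide in the light, was read by 7 of 26 listed genes. In cat2 rbohF against cat2, where 16.4% of all tested probe sets were called, 6.47% higher and 9.89% lower, 1 of 7 rose, AT1G32470, an H-protein gene of glycine decarboxylase, by 0.27 ± 0.08 (SE; limma adjusted p = 0.0463), and the median of the 7 was 0.24, against 0.008 over all tested probe sets. The call of AT1G32470 held only where the array left out was cat2 rbohD replicate 3 or cat2 replicate 1 (limma adjusted p up to 0.15 otherwise), and with the replicate block it did not pass (limma adjusted p = 0.0596). The peroxisomal hydroxypyruvate reductase gene HPR stood at 12.59 ± 0.073 in cat2 rbohF and 12.38 ± 0.086 in cat2 and did not pass (limma adjusted p = 0.179). Of 5 tested genes of ascorbate and glutathione recycling, which removes peroxide outside peroxisomes as well, 3 were called, beside 16.4% over all tested probe sets: TAPX, for an ascorbate peroxidase of the thylakoid, rose by 0.42, the glutathione reductase gene GR1 fell by 0.36 and the monodehydroascorbate reductase gene ATMDAR2 by 0.54 (limma adjusted p = 0.00949, 0.0111 and 0.0194), and SAPX and GR did not pass. TAPX and GR1 were called with any 1 array left out, and ATMDAR2 was not without replicate 1 or 3 of cat2 rbohF or replicate 2 or 3 of cat2 (limma adjusted p up to 0.0835). Of 3 peroxiredoxin genes, 1 was called, again beside 16.4%: AT3G52960 rose by 0.33 (limma adjusted p = 0.022) and the chloroplast 2-Cys peroxiredoxin gene AT3G11630 and the mitochondrial PRXIIF did not pass. AT3G52960 lost the call without replicate 1 or 3 of cat2 rbohF or any cat2 array (limma adjusted p up to 0.0815). CCS, the copper chaperone of superoxide dismutases and the only gene of its list tested, stood at 7.99 ± 0.24 in cat2 rbohD, 8.67 ± 0.58 in cat2 rbohF and 8.74 ± 0.20 in cat2 (SD, n = 3 each), and its log2 fold change of -0.75 in cat2 rbohD against cat2 did not pass (limma adjusted p = 0.317).

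**Figure D3:**
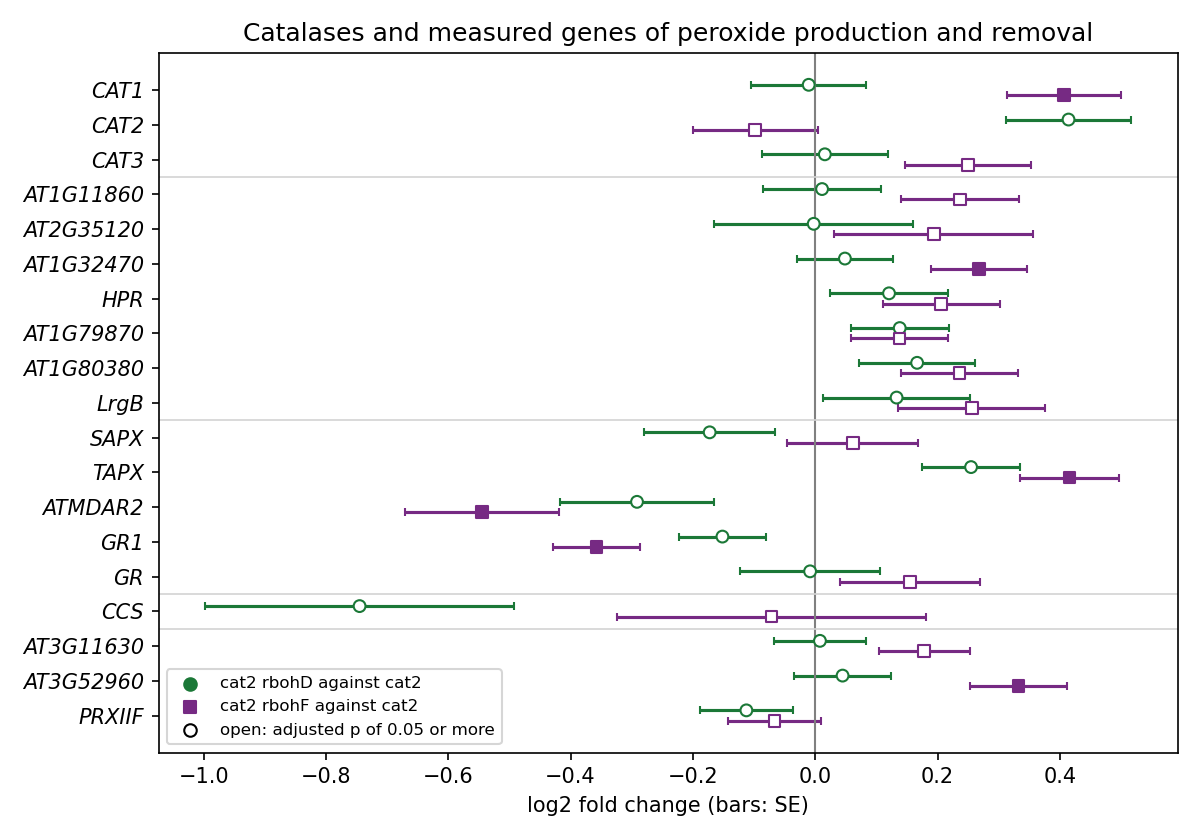
Log2 fold changes of the 3 catalases and of the tested genes of photorespiration, ascorbate and glutathione recycling, superoxide dismutase assembly and peroxiredoxins (groups split by grey lines, top to bottom) in cat2 rbohD against cat2 (circles) and cat2 rbohF against cat2 (squares). Bars are standard errors and filled symbols passed the limma test: only squares are filled, among the catalases only that of CAT1.

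Clock and senescence genes were read because CAT2 and CAT3 are rhythmic and CAT3 is also known as SENESCENCE 2. GIGANTEA, listed as GI and the only clock gene tested of 12, stood at 7.83 ± 0.079 in cat2 rbohF and 7.37 ± 0.18 in cat2 (SD, n = 3 each) and rose by 0.47 (limma adjusted p = 0.0124), a call lost without cat2 rbohF replicate 1 or cat2 replicate 2 (up to 0.0607). The sources used here do not give the hour of harvest, and its part in the values of CAT1, CAT2 and CAT3 was not tested. Of 3 tested senescence genes of 10, 2 were called, beside 16.4% over all tested probe sets: the sugar transporter gene SAG29 rose by 1.59 and the transcription factor gene WRKY53 fell by 1.98 in cat2 rbohF against cat2 (limma adjusted p = 0.0326 and 0.00332), and SAG101 did not pass. WRKY53 was called with any 1 array left out, and SAG29 was not without replicate 1 or 3 of cat2 rbohF or any cat2 array (limma adjusted p up to 0.113).

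**Figure D4:**
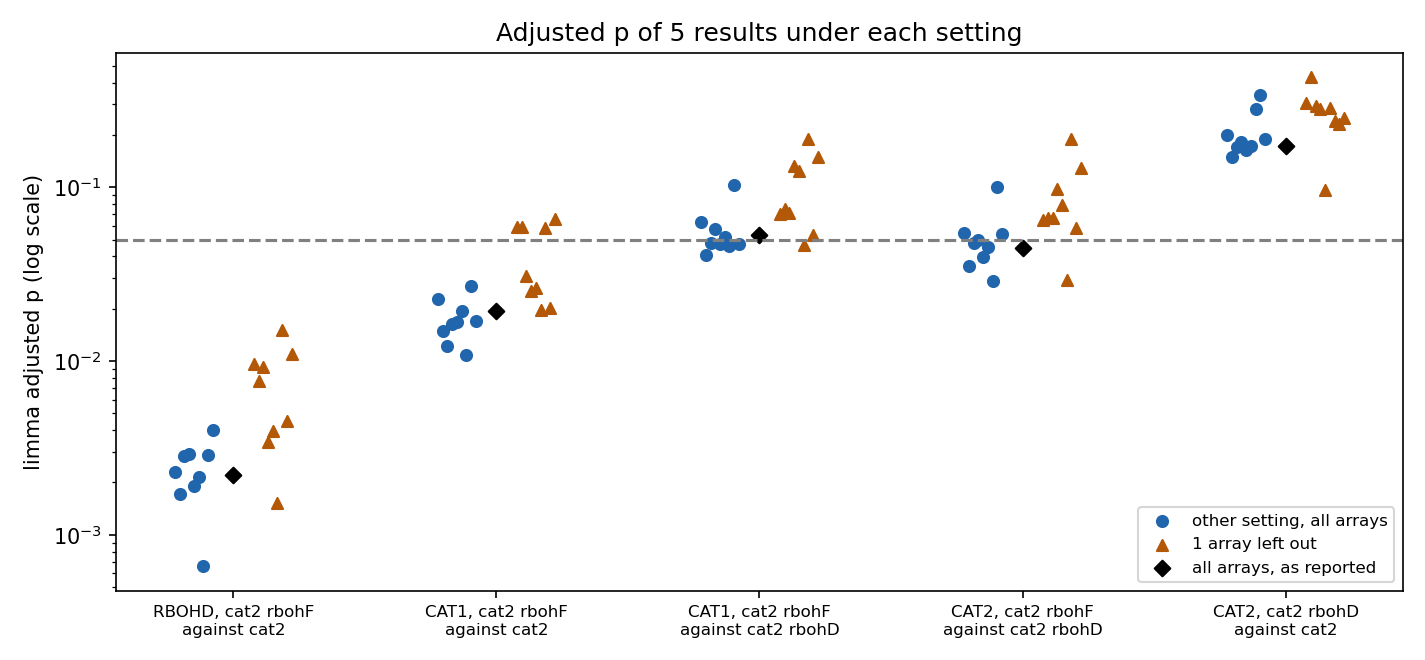
Limma adjusted p (log axis) of 5 results with all 9 arrays as reported (diamonds), under 9 other settings (circles; the replicate block and the fit on 6 arrays are among them) and with each of the 9 arrays left out (triangles), with the threshold of 0.05 as a dashed line. RBOHD in cat2 rbohF against cat2 stays under the line throughout, both results of CAT1 and that of CAT2 between the double mutants lie on both sides of it, and CAT2 in cat2 rbohD against cat2 stays above it.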

How the data were processed

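Leaf RNA was labelled for Affymetrix arrays, per the labels' protocols. The authors deposited 1 log2 value per probe set and array. They used GCRMA, per the submitters' processing notes, which give no version. GCRMA corrects background by probe sequence and normalizes arrays by quantiles, which hides any change that most transcripts share. Arrays have no read depth, and their number limits the precision.

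Of 22810 probe sets, 64 controls were left out, and 13888 passed the filter on dim values. Tests were made with limma (version 3.58.1, in R version 4.3.3) by lmFit and eBayes, two-sided, with 1 mean per genotype, 1 spread from all 9 arrays and Benjamini-Hochberg adjustment over all tested probe sets; called means an adjusted p under 0.05. Intervals are unadjusted. In the probe annotation 13513 probe sets have 1 gene, and names were updated from RefSeq (assembly TAIR10.1).

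The members and lists were chosen with earlier results of these data known. Named genes are the members, up to 4 called members of each list by smallest p (up to 2 where none was called), and the 5 most correlated named genes of each member. Also named, outside this rule, were HPR, GR, SAG101 and the dim NADPH oxidase genes. Alternatives were a stricter filter or none, 2 other scalings, 3 other variance models, fewer arrays, the replicate number as a block, and each array left out. Arrays of the same number deviated together weakly in cat2 rbohF and cat2 (correlations of 0.142, 0.15 and 0.171 for replicates 1, 2 and 3). Whether the numbers pair the arrays was not tested. All printed values are from the fit without the block unless it is named. With the block, RBOHD and CAT1 stayed called in that comparison (limma adjusted p = 0.004 and 0.0169), and of 27 further genes 2 lost the call, AT1G32470 and BGLU45 (0.0596 and 0.0523).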

Additional observations from a re-analysis of the deposited data

How the results depend on the processing

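The results for RBOHD kept their direction and their call in all 3 comparisons under all 9 other settings and with each array left out: -5.20 to -5.12 in cat2 rbohD against cat2, -0.70 to -0.59 in cat2 rbohF against cat2 and 4.47 to 4.56 between the double mutants with 1 array left out. CAT1 in cat2 rbohF against cat2 ran from 0.32 to 0.47, and CAT2 between the double mutants from -0.59 to -0.40. CAT2 between the double mutants did not pass when dim probe sets were kept, when the third genotype was left out or with the replicate block, each at -0.51 (limma adjusted p = 0.0543, 0.101 and 0.0542). CAT1 between the double mutants, at 0.053, passed at 0.42 with the stricter filter, the intensity trend and the replicate block, at 0.43 with quantile normalization again and at 0.41 with array weights (limma adjusted p = 0.0405, 0.0473, 0.0471, 0.0478 and 0.0458), and ran from 0.33 to 0.48 with 1 array left out. In cat2 rbohD against cat2, where neither passed, the sign turned for CAT1 (0.0072 with quantile normalization again, 0.018 with median centring, -0.063 to 0.038 with 1 array left out) and for CAT3 (-0.0062 with quantile normalization again, -0.074 to 0.11 with 1 array left out).

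The count of changed probe sets was 29 in cat2 rbohD against cat2, and 12 with the stricter filter, 18 with array weights, 15 with the 6 arrays compared, 54 with the replicate block and 7 to 35 with 1 array left out. In cat2 rbohF against cat2 it was 2273, and 817 to 2704 with 1 array left out. Between the double mutants it was 267, and 164 without a filter, 455 with the stricter filter, 703 with array weights, 2 with the 6 arrays compared and 1 to 1065 with 1 array left out; the highest was without cat2 rbohD replicate 3. The cause of these shifts was not tested. For cat2 rbohD, same-numbered deviations correlated with mixed sign, at -0.235 to 0.157 with cat2 and -0.113 to 0.25 with cat2 rbohF. Pairing by replicate number was not tested there either. The replicate block for the genes named beside the members was chosen after seeing the data. Between the double mutants it changed 2 of their 27 calls, FMA and PYK10, which passed with it (limma adjusted p = 0.0471 and 0.0371), and in cat2 rbohD against cat2 it changed 0.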
